A study of Triticum aestivum with 6 samples.

Results

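The change of the transcript profile of wheat starchy endosperm between 6 and 9 days post anthesis (DPA) was described from the 9 DPA starchy endosperm library and the 6 DPA starchy endosperm library, 2 of 6 RNA-seq libraries. All libraries came from hand-dissected young grain of Triticum aestivum (bread wheat) of the cultivar Banks, with no treatment or mutation named in the labels. Aleurone and starchy endosperm were collected at 6, 9 and 14 DPA, and each library was made from a pool of 5 or more seeds taken from 3 spikes and 3 plants. Each tissue and stage had 1 library, so no difference below has a replicate check, no test was possible and no p-value is given. Every interval covers counting error only.

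The starchy endosperm is the inner storage tissue of the cereal grain. It starts as a multinucleate cell that forms walls and divides, and its cells then turn to filling with starch and with storage proteins such as the gliadins and glutenins of gluten. The aleurone is the outer cell layer of the same endosperm, which does not fill with starch and secretes hydrolytic enzymes at germination. In bulk samples, fewer cells of a type and less RNA per cell cannot be told apart.

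Reads were counted on 221925 transcript sequences, of which 93508 have identifiers beginning with TC and 128417 have other identifiers. The files do not pair these identifiers with gene names, and 0 of them matched the wheat gene table used here. The identity of the tissue was therefore not checked against marker genes: 6 marker lists with 37 symbols matched 0 sequences. Sequences are described below by level, length, read uniqueness and behaviour in the other libraries, and a sequence is not a gene, since a gene can be represented by several.

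The 9 DPA library held 4104682 reads and the 6 DPA library 30581013, so the 6 DPA library, like the other 4, was thinned at random to 4104682 reads for every ratio. Of the reads, 42.1% were counted as unique by the authors at 9 DPA and 52.9% at 6 DPA. In aleurone the unique shares were 45.1% at 9 DPA and 52.2% at 6 DPA. The 6 DPA files also have an extra column that the files of later stages lack, so stage cannot be told apart from any difference in how the 2 stages were processed.

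The profile changed widely between the 2 stages. A sequence was considered when it had 50 or more reads at equal depth in whichever library was higher. It was called changed at a scaled ratio of 4 or more, where any count under 3 reads was raised to 3. Of 19325 sequences considered, 1934 (10%) were higher at 9 DPA and 2843 (14.7%) were lower, together 4777 or 24.7%. The sequences considered held 83.7% of the reads at 9 DPA and 84.6% at 6 DPA. The other 202600 sequences had too few reads for a statement at this depth.

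Most sequences moved by less than 4-fold, and the spread was wide. The log2 ratio of 9 to 6 DPA had a median of -0.06 and quartiles of -1.25 and 1.0, and the median absolute change was 2.16-fold. The lowest and highest 5% lay beyond -3.45 and 2.84. At a threshold of 2-fold, 4840 sequences were higher and 5685 lower at 9 DPA. At 16-fold 503 were higher and 608 lower. At 64-fold the balance was the other way round, with 105 higher and 40 lower. Each count includes all larger changes. Falls thus outnumbered rises at the thresholds of 2-fold, 4-fold and 16-fold, and rises outnumbered falls at 64-fold.

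**Figure D1:**
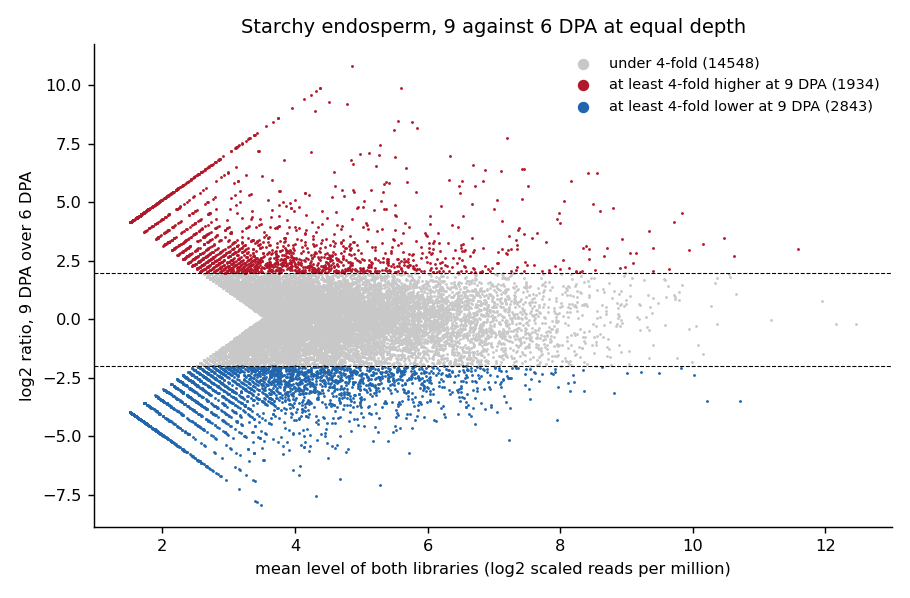
Log2 ratio of 9 DPA over 6 DPA starchy endosperm (vertical axis) against the mean level of both libraries in log2 of scaled RPM, reads per 1000000 (horizontal axis) for the 19325 sequences considered at equal depth. Red points are the 1934 sequences at least 4-fold higher at 9 DPA, blue points the 2843 at least 4-fold lower and grey points the 14548 in between. The dashed lines mark 4-fold, and the diagonal rows at the left come from low whole counts in 1 of the libraries.

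Few of these changes were between presence and complete absence. Of the 1934 higher sequences, 113 had no read at 6 DPA at equal depth, and 16 had none at the full 6 DPA depth of 30581013 reads. Of the 2843 lower sequences, 67 had no read at 9 DPA. A count of 0 allows up to 0.731 RPM (reads per 1000000 reads of the library) at 9 DPA and 0.0981 RPM at 6 DPA at full depth. At full depth the exact 95% interval of the ratio lay wholly above 4-fold for 1345 (69.5%) of the higher sequences. It lay wholly beyond 4-fold for 1785 (62.8%) of the lower ones. The intervals rest on the counts that also chose the sequences, which raises both shares, so they are a description and not independent support. The other changed sequences lie close enough to 4-fold that counting error alone could move them across it.

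The change reached the most abundant transcripts. Among the 668 sequences with 1000 or more reads in the higher library, 145 (21.7%) were higher and 128 (19.2%) were lower at 9 DPA. Among the 8476 with 50 to 99 reads, 843 (9.95%) were higher and 1092 (12.9%) lower. The median absolute log2 change was 1.75 in the most abundant class and 1.06 in the least abundant. The classes were made from the higher of the counts that give the ratio. More change in the most abundant class can follow in part from that choice. Among classes of 50 or more reads, rises outnumbered falls in the class of 1000 or more. With the read minimum removed they also did so over all sequences, 6336 against 6077.

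The list of the 100 most abundant sequences was largely replaced. At equal depth 29 sequences were in the top 100 at both stages. Of the top 100 at 9 DPA, 55 were at least 4-fold higher than at 6 DPA, and 34 had ranked beyond 1000 at 6 DPA. Of the top 100 at 6 DPA, 29 were at least 4-fold lower at 9 DPA, and 18 ranked beyond 1000 there. The 9 DPA top 100 held 16.3% of the reads at 9 DPA, against 5.35% at 6 DPA. The 6 DPA top 100 held 8.0% at 9 DPA, against 10.7% at 6 DPA. The older list thus held a smaller share at 9 DPA than at 6 DPA, and a smaller one than the newer list. Its 9 DPA share includes the 29 sequences in both lists, which were not separated from the rest. In aleurone 56 sequences were in the top 100 at both stages, 20 of the 9 DPA list were at least 4-fold higher and 10 of the 6 DPA list at least 4-fold lower. This difference between the tissues was not tested.

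More reads on fewer sequences did not come with fewer sequences detected. At equal depth 101673 sequences had at least 1 read at 9 DPA and 94806 at 6 DPA. In aleurone the numbers were 106319 at 9 DPA and 99928 at 6 DPA.

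As a share of all transcripts, the 2 sets exchanged places. The 1934 higher sequences held 21.2% of the reads at 9 DPA (95% exact binomial interval 21.15 to 21.23), against 2.32% at 6 DPA (2.31 to 2.32). The 2843 lower sequences held 2.46% at 9 DPA (2.45 to 2.48), against 19.6% at 6 DPA (19.61 to 19.64). These shares follow from how the sets were chosen and are given as a description. The sequences considered that moved by less than 4-fold held 60.0% at 9 DPA and 62.7% at 6 DPA. In all, 41.9% of the reads would have to be moved between sequences to turn 1 profile into the other at equal depth, a value that includes counting noise. The same measure was 27.3% in aleurone.

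The gain was carried by fewer sequences than the loss. Over all sequences at equal depth, 594 held 50% of the gain in reads and 1289 held 50% of the loss. The reads of the higher set at 9 DPA were also more concentrated than those of the larger lower set at 6 DPA. At 9 DPA 69 of the 1934 higher sequences held 50% of that set's reads, and the 100 most abundant held 12.2% of the library. At 6 DPA 288 of the 2843 lower sequences held 50% of theirs, and the 100 most abundant held 6.17% of the library. The single most abundant sequence took 0.888% of the 9 DPA library among the higher ones and 0.606% of the 6 DPA library among the lower ones.

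The 14 DPA starchy endosperm library entered the choice of the sets only through the TMM scaling over all 6 libraries, and TMM on the 9 and 6 DPA libraries alone gave 1749 higher and 3048 lower sequences. The 1934 higher sequences made up 2.32% of starchy endosperm reads at 6 DPA, then 21.2% at 9 DPA and 33.0% at 14 DPA. Their median level was 4.10 RPM at 6 DPA, 27.3 RPM at 9 DPA and 10.4 RPM at 14 DPA. The summed share and the median thus point in opposite directions after 9 DPA. The 100 of them that were most abundant at 9 DPA had median levels of 57.7 RPM at 6 DPA, 769.6 RPM at 9 DPA and 1283 RPM at 14 DPA. In aleurone the medians of these 100 were 0.276 RPM at 6 DPA, 8.90 RPM at 9 DPA and 94.9 RPM at 14 DPA, so they were far below starchy endosperm at every stage. In starchy endosperm the other 1834 had medians of 3.92, 26.1 and 9.29 RPM at the same stages. A minority of abundant sequences carried the later share, while the typical sequence of the set stood lower at 14 than at 9 DPA, though above its 6 DPA level. The set was chosen for high 9 DPA counts, and the 100 by their 9 DPA level. A lower median at 14 DPA, and the contrast between the 100 and the other 1834, can follow in part from that choice. The 14 DPA shares and RPM values are per library total, and the TMM factor of that library was 0.640. On the TMM scale the medians of the higher set were 3.81, 27.0 and 16.3 RPM, in the same order as before.

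The lower set was still below its 6 DPA level at 14 DPA. The 2843 sequences made up 19.6% of starchy endosperm reads at 6 DPA, then 2.46% at 9 DPA and 3.69% at 14 DPA. Their median level was 30.7 RPM at 6 DPA, 3.41 RPM at 9 DPA and 4.16 RPM at 14 DPA. At equal depth 10.4% of them had no read at 14 DPA, against 2.36% at 9 DPA. The 100 most abundant at 6 DPA had medians of 388.3 RPM at 6 DPA, 54.9 RPM at 9 DPA and 38.9 RPM at 14 DPA. These shares and RPM values are per library total, and the TMM factor of the 14 DPA library was 0.640. On the TMM scale the medians of the whole lower set were 28.5 RPM at 6 DPA, 3.37 RPM at 9 DPA and 6.5 RPM at 14 DPA. For the 100, the order of the 9 and 14 DPA medians turns with the scaling. Values for 9 and 14 DPA against 6 DPA share the 6 DPA library, and those for 9 and 14 DPA against each other share the set's own 9 DPA values.

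**Figure D2:**
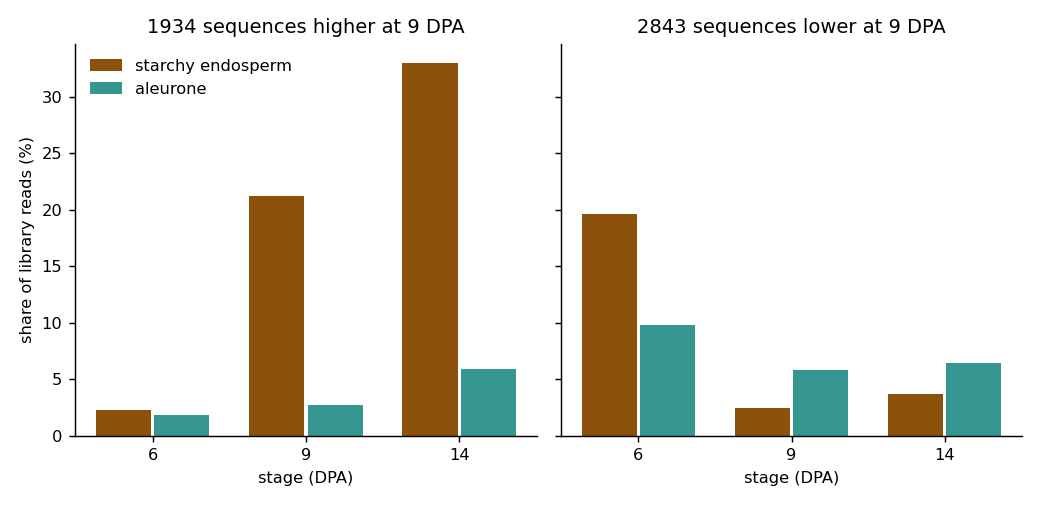
Share of all reads of each library (vertical axis, %) held by the 1934 sequences higher at 9 DPA (left) and the 2843 sequences lower at 9 DPA (right), by stage, with 1 library per bar and so no error bar. Brown bars are starchy endosperm and green bars aleurone. The higher set reached 33.0% of starchy endosperm reads and 5.87% of aleurone reads at 14 DPA, and the lower set stood at 3.69% and 6.40% there.

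The higher set consisted mostly of sequences that prefer starchy endosperm to aleurone. At 9 DPA 1275 (65.9%) of the 1934 stood at least 4-fold higher in starchy endosperm than in aleurone and 17 (0.879%) at least 4-fold higher in aleurone. Over all 19325 sequences considered the shares were 19.9% and 6.55%. The 9 DPA starchy endosperm library enters both the choice of the set and this ratio, which raises the first share. The 14 DPA libraries enter the choice only through the scaling. At 14 DPA, 1054 of the 1934 had 50 reads in the higher tissue, and 575 (54.6%) of these stood at least 4-fold higher in starchy endosperm and 47 (4.46%) at least 4-fold higher in aleurone. Of all sequences considered, 13167 could be compared at 14 DPA, and the shares were 13.8% and 7.37%. The median log2 ratio of starchy endosperm to aleurone at 14 DPA was 2.53 for the higher set and 0.13 for all.

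At 6 DPA 964 (33.9%) of the 2843 stood at least 4-fold higher in starchy endosperm than in aleurone, 1838 were within 4-fold and 41 (1.44%) were at least 4-fold higher in aleurone. Over all sequences considered the 6 DPA shares were 17.3% higher in starchy endosperm and 2.22% higher in aleurone. The 6 DPA starchy endosperm library enters both the choice of the lower set and this ratio, which raises the first share. At 14 DPA 1376 of the 2843 could be compared between the tissues. Of these 145 (10.5%) stood at least 4-fold higher in starchy endosperm and 263 (19.1%) at least 4-fold higher in aleurone, with a median log2 ratio of -0.49. Over all sequences compared at 14 DPA these shares were 13.8% and 7.37%, and the difference was not tested. The 41 sequences higher in aleurone at 6 DPA made up 0.100% of all starchy endosperm reads at that stage, against 1.11% of the aleurone reads. Carry-over of aleurone RNA in the dissection was not tested. Sequences at least 4-fold higher in starchy endosperm held 9.67 of the 19.6 percentage points of the lower set at 6 DPA.

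The 1838 lower sequences that were within 4-fold of aleurone at 6 DPA had a median level in starchy endosperm of 28.4 RPM at 6 DPA, 3.65 RPM at 9 DPA and 4.99 RPM at 14 DPA. In aleurone it was 24.1 RPM at 6 DPA, 10.4 RPM at 9 DPA and 12.8 RPM at 14 DPA. The starchy endosperm values at 6 and 9 DPA, and their closeness to aleurone at 6 DPA, follow from how these sequences were chosen.

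The aleurone libraries of the same stages share no library with the starchy endosperm comparison. In aleurone 876 of 19986 sequences considered (4.38%) were at least 4-fold higher at 9 DPA and 908 (4.54%) lower, together 8.93%. Among the 12924 sequences considered in both tissues, the median log2 ratio of 9 to 6 DPA in aleurone was 0.09. It was 0.80 for the 564 of them that were higher in starchy endosperm and -0.92 for the 1636 that were lower, and the same sequences had medians of 2.47 and -2.78 in starchy endosperm. The starchy endosperm medians follow from the choice of the sets. The aleurone medians thus lay on the same side of 0 as those of starchy endosperm. There were 1370 sequences of the higher set and 1207 of the lower set that had too few aleurone reads to be considered there.

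There were 351 sequences at least 4-fold lower at 9 DPA in both tissues, which is 12.3% of the starchy endosperm list and 38.7% of the aleurone list. There were 106 at least 4-fold higher in both, which is 5.48% of the starchy endosperm list and 12.1% of the aleurone list. Of the sequences of the lower set considered in both tissues, 21.5% were thus lower in aleurone, where 585 (4.53%) of all 12924 were. Of those of the higher set, 18.8% were higher in aleurone, where 328 (2.54%) of all were. The overlap was not tested. The stage difference common to both tissues cannot be told apart from any difference between the 9 and 6 DPA libraries in how they were made.

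The 106 sequences higher in both tissues had large changes, with a median log2 ratio of 3.37 in starchy endosperm and 3.40 in aleurone, and 26 were at least 16-fold higher in both. They made up 0.623% of starchy endosperm reads at 6 DPA, then 6.23% at 9 DPA and 8.0% at 14 DPA. Their share of aleurone reads was 0.0609% at 6 DPA, then 0.515% at 9 DPA and 0.673% at 14 DPA. In each stage the aleurone share was thus below the starchy endosperm share. Their median levels were 5.23 RPM at 6 DPA, 41.5 RPM at 9 DPA and 5.72 RPM at 14 DPA in starchy endosperm, and 2.60, 25.5 and 6.53 RPM in aleurone. In starchy endosperm 7 of the 106 held 50% of the group's reads at 9 DPA, and 7 did at 14 DPA. Carry-over of starchy endosperm RNA into the aleurone preparations was not tested.

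The 351 sequences lower in both made up 2.39% of starchy endosperm reads at 6 DPA, then 0.215% at 9 DPA and 0.683% at 14 DPA. Their share of aleurone reads was 2.06%, then 0.244% and 1.26%. Their levels were similar in the tissues at 6 and 9 DPA, with medians of 38.5 and 3.41 RPM in starchy endosperm and 31.3 and 3.52 RPM in aleurone. At 14 DPA the medians were 7.71 RPM in starchy endosperm and 18.3 RPM in aleurone. These values are per library total. The TMM factors at 14 DPA were 0.640 in starchy endosperm and 1.07 in aleurone, so the gap is smaller on the TMM scale.

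**Figure D3:**
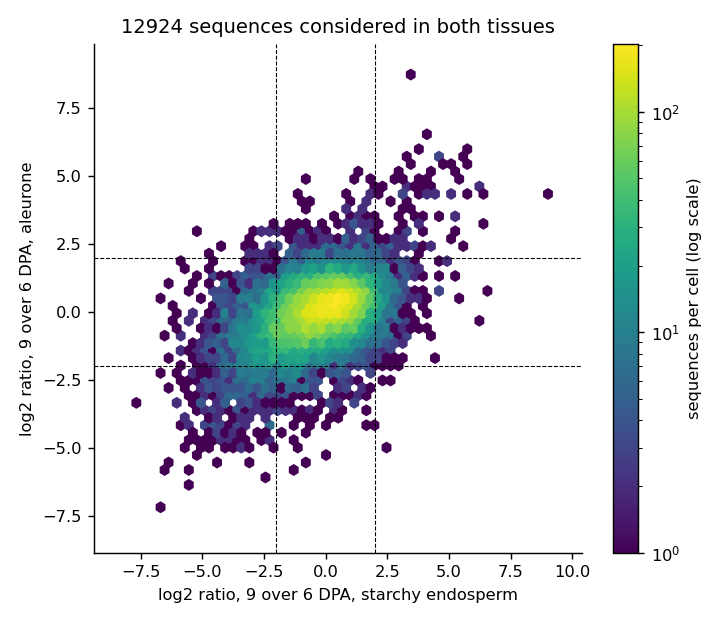
Log2 ratio of 9 over 6 DPA in starchy endosperm (horizontal axis) and in aleurone (vertical axis) for the 12924 sequences considered in both tissues, as the number of sequences per hexagonal cell on a log colour scale. The dashed lines mark 4-fold in either tissue. The cloud is wider along the starchy endosperm axis, with 106 sequences beyond 4-fold at the upper right and 351 at the lower left.

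The direction of change went with the length of the sequence. The sequences considered were divided by length into 4 groups of nearly equal size. Of the 4838 shortest, of 105 to 695 bases, 11.2% were higher and 23.1% lower at 9 DPA, with a median log2 ratio of -0.61. Of the 4826 longest, of 1182 to 7535 bases, 10.5% were higher and 5.93% lower, with a median of 0.48. The groups in between had medians of -0.27 and -0.05. The share that fell thus declined with length, while the share that rose stayed between 8.76% and 11.2%. The median length was 898 bases for the higher set, 752 bases for the lower set and 932 bases for the sequences that moved by less than 4-fold.

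No such gradient in the median appeared in aleurone between the same stages, where the 4 length groups of its own considered sequences had median log2 ratios between 0.06 and 0.18. The shares past 4-fold did decline with length in aleurone, in both directions. There, 7.48% of the shortest group were higher and 6.30% lower at 9 DPA, while 2.23% of the longest were higher and 2.23% lower. Comparing tissues within a stage showed the gradient at 6 DPA. The median log2 ratio of 6 DPA starchy endosperm to 6 DPA aleurone was 0.90 in the shortest group, then 0.60 and 0.44, and 0.26 in the longest. At 9 DPA it was 0.59, 0.36, 0.36 and 0.58, and at 14 DPA 0.35, 0.16, 0.14 and 0.30. Averaged over reads, the sequences hit were 1052 bases long in the 9 DPA starchy endosperm library and 968 in the 6 DPA starchy endosperm library, against 994 and 1002 in aleurone at 9 and 6 DPA. Whether the gradient came from the transcripts or from the making of 1 library was not tested. With log2 ratios centred on the median of each length group, an alternative chosen after seeing the data, 2126 sequences were higher and 2480 lower.

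**Figure D4:**
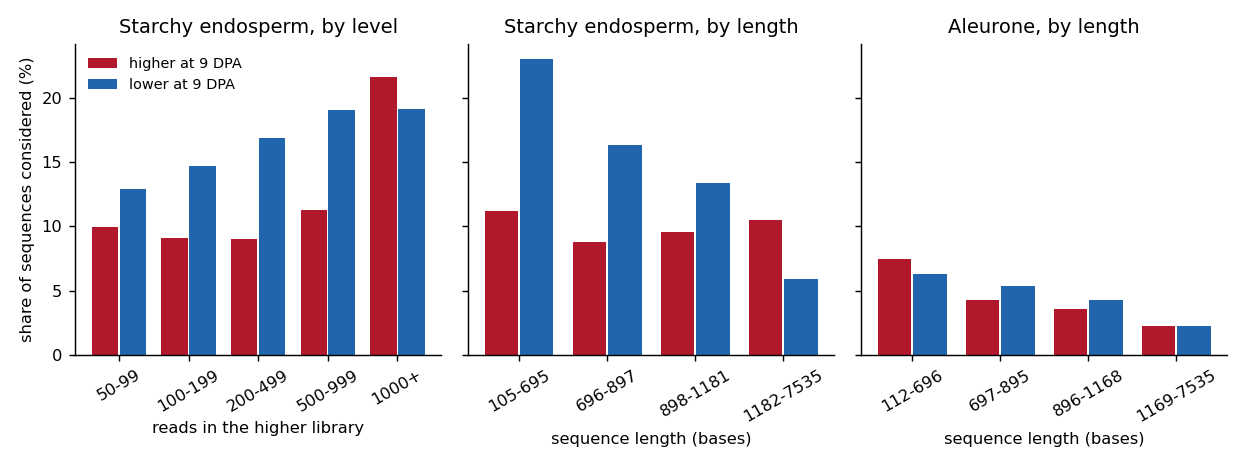
Share of the sequences considered (vertical axis, %) that were at least 4-fold higher (red) or lower (blue) at 9 DPA than at 6 DPA, by reads in the higher starchy endosperm library (left), and by sequence length in bases in starchy endosperm (middle) and aleurone (right). In starchy endosperm the share lower at 9 DPA is 23.1% among the shortest sequences and 5.93% among the longest, and in aleurone no length group exceeds 7.48% in either direction.

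Sequences with almost no unique reads changed more often than the other classes. Where under 10% of a sequence's reads in the 2 libraries were unique, 21.7% of 1614 sequences were higher and 29.1% lower at 9 DPA. In the 3 classes with larger unique shares, in order of that share, 9.39%, 8.97% and 7.94% were higher and 16.3%, 9.49% and 15.7% lower, so falls did not decline steadily with uniqueness. The median share of unique reads was 46.1% in the higher set, 41.5% in the lower set and 59.4% among sequences that moved by less than 4-fold. Values of such sequences are uncertain, because the sources used here do not give how the authors shared such reads out. The directions held on unique reads alone where these sufficed. Of the 1934 higher sequences, 958 had 50 unique reads at equal unique depth, and 955 of these were higher on unique reads, 802 of them at least 4-fold. Of the 2843 lower sequences, 1242 had 50 unique reads, 1241 were lower and 1093 at least 4-fold. None (0) of either set turned to the other side of 4-fold.

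Sequences with other identifiers changed more often than those with TC identifiers. Of the 2841 considered whose identifiers do not begin with TC, 16.7% were higher and 17.9% lower at 9 DPA. Of the 16484 with TC identifiers, 8.85% were higher and 14.2% lower.

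The sequences named here, 2 per direction, show a strong gain, a switch on, a strong loss and a switch off. They were taken by a stated rule from those past 4-fold on total and on unique reads. TC400630 (669 bases) had the largest gain in RPM. It had 36464 reads at 9 DPA and, at full depth, 36782 at 6 DPA, which is 13279 RPKM at 9 DPA and 1798 RPKM at 6 DPA (RPKM is RPM per kilobase of sequence). It was the most abundant sequence by reads at 9 DPA and ranked 20 at 6 DPA. The scaled ratio of 9 to 6 DPA was 7.86 (95% interval 7.75 to 7.98), a log2 ratio of 2.97. On unique reads the log2 ratio was 3.59, so the value depended on the reads counted by more than the interval covers. Of the 9 DPA starchy endosperm reads of TC400630, 14648 were unique. It had 12636 RPKM in 14 DPA starchy endosperm, and 11.3, 94.96 and 1099.8 RPKM in aleurone at 6, 9 and 14 DPA. On the TMM scale TC400630 stood at 8779 RPM in starchy endosperm at 9 DPA and at 13200.4 RPM at 14 DPA, so the order of these stages turns with the scaling. In aleurone it was lower than in starchy endosperm at each stage.

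TC414662 (911 bases) had the largest ratio of the higher set. It had 2639 reads at 9 DPA and 3 at 6 DPA at full depth, which is 706 RPKM at 9 DPA and 0.108 RPKM at 6 DPA. The ratio was 6975, with a wide interval of 2384 to 33846 because of the 3 reads. It had 331 RPKM in 14 DPA starchy endosperm, and 0, 1 and 624 reads in aleurone at 6, 9 and 14 DPA. Of its 9 DPA starchy endosperm reads 2582 were unique, so near-identical copies took little part in this value.

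TC415525 (1702 bases) had the largest loss in RPM. It had 2070 reads at 9 DPA and 185293 at 6 DPA, which is 296 RPKM at 9 DPA and 3560.0 RPKM at 6 DPA, where it ranked second by reads. The ratio of 6 to 9 DPA was 11.3 (95% interval 10.8 to 11.8). It stood at 22.1 RPKM in 14 DPA starchy endosperm. In aleurone it had 199.6, 134 and 9.28 RPKM at 6, 9 and 14 DPA, so its level was lower at each later stage in both tissues. Of its 6 DPA starchy endosperm reads 32476 were unique, and of its 9 DPA reads 292. Its level and rank thus rest mostly on reads that were not unique to it. The log2 ratio of 9 to 6 DPA was -3.50 on total reads and -3.55 on unique reads.

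TC412565 (536 bases) had the largest ratio of the lower set. It had 2 reads at 9 DPA and 5755 at 6 DPA, which is 0.909 RPKM at 9 DPA and 351 RPKM at 6 DPA. The ratio of 6 to 9 DPA was 363 as counted (95% interval 100.4 to 2997). It had 12 reads in 14 DPA starchy endosperm, and 46, 0 and 4 reads in aleurone at 6, 9 and 14 DPA. It was thus abundant in 1 of the 6 libraries, and 5647 of its 5755 reads there were unique.

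**Figure D5:**
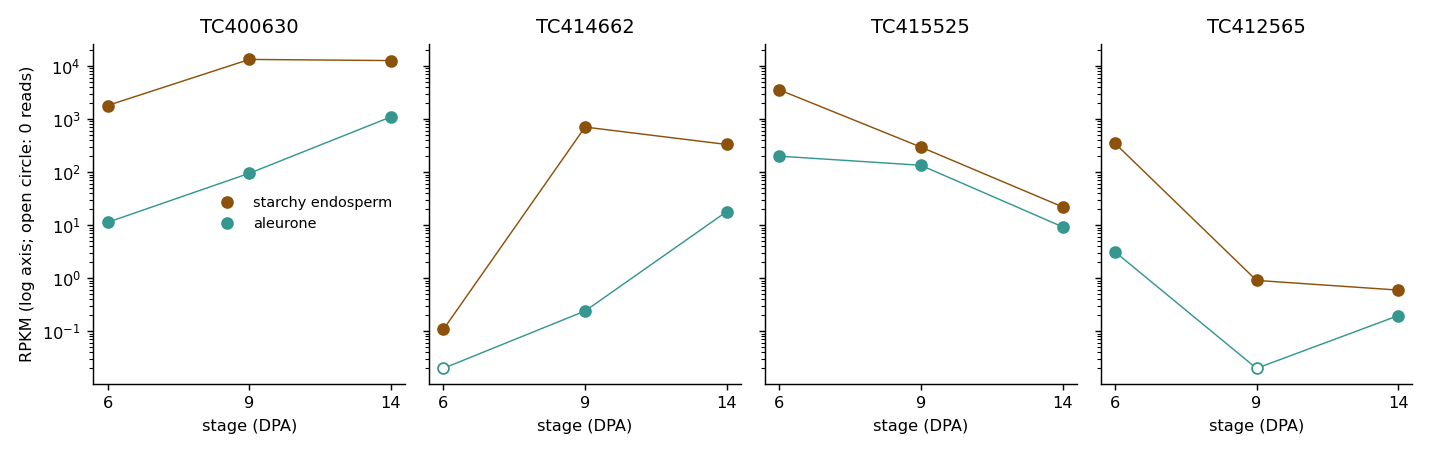
Level of TC400630, TC414662, TC415525 and TC412565 in RPKM (vertical axis, log scale) by stage in starchy endosperm (brown) and aleurone (green), with 1 library per point. Open circles stand for libraries with 0 reads and are drawn at an arbitrary low position. The first pair is high in starchy endosperm at 9 and 14 DPA, and the second pair is highest in starchy endosperm at 6 DPA.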

How the data were processed

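Linear amplification of RNA and removal of the poly(A) tail were followed by 15 PCR cycles and Genome Analyzer IIx sequencing, per the labels' protocols. Per the file headers, the authors deposited total and unique read counts per transcript sequence and RPKM values; the aligner is not given in these sources, nor is the version of the sequence set. RPKM recomputed from total counts matched the deposited RPKM to within 5.0e-04. The score that the authors deposited for 6 DPA as transformed values was not used.

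Total counts of the 6 libraries were drawn without replacement to 4104682 reads and scaled by TMM (edgeR 4.0.16, R 4.3.3) over sequences with 10 reads in 3 libraries. Ratios of named sequences used full-depth counts with exact conditional binomial intervals. RPM is reads per 1000000. PCR copies were not told apart. The calling procedure was tested on simulated data. DESeq2 1.42.0 size factors were an alternative, and other steps used Python 3.11.15.

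Among sequences past 4-fold on total and unique reads, those named had the largest difference in RPM and the largest ratio per direction. The libraries compared and the rules were chosen with earlier results of these data known.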

Additional observations from a re-analysis of the deposited data

Results flagged for a closer look

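In 24 sequences the tissues moved at least 4-fold in opposite directions between 6 and 9 DPA, out of 12924 considered in both. There were 3 that were higher at 9 DPA in starchy endosperm and lower in aleurone, with log2 ratios of 2.31 to 2.51 in starchy endosperm and -4.95 to -2.42 in aleurone. There were 21 that were lower at 9 DPA in starchy endosperm and higher in aleurone, with median log2 ratios of -2.66 in starchy endosperm and 2.46 in aleurone. The median levels of these 21 were 48.2, 6.33 and 2.29 RPM in starchy endosperm at 6, 9 and 14 DPA, and 12, 47.5 and 10.2 RPM in aleurone. The difference between the tissues was not tested, since each had 1 library per stage.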

How the results depend on the processing

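No paired analysis was possible because each tissue and stage had 1 library and no test was made. The counts of changed (4777), higher (1934) and lower (2843) sequences stayed within 1.5 times under library totals, TMM on the 2 libraries and DESeq2 size factors. They also did so with the 6 DPA counts multiplied by the depth ratio, without the most abundant sequences and with TC identifiers only. Centring by length and 9 further thinnings (4736 to 4804 changed) did so as well. The share of changes that were higher ran from 36.5% to 46.2% over these alternatives, with 40.5% as reported. The members of the sets were less stable than their numbers. Each further thinning kept 1671 to 1708 of the 1934 higher and 2543 to 2566 of the 2843 lower sequences. With the depth ratio 1740 and 2603 were kept. A floor of 1 read gave the same counts, which the minimum of 50 reads fixed in advance. Without thinning, 9087 changed and 7331 were lower, and 19.3% of changes were higher, because the read minimum then favours the deeper 6 DPA library. The read minimum set the counts: at 20 reads 9049 changed (4154 higher, 4895 lower), at 100 reads 2842 (1091 and 1751) and with no minimum 12413 (6336 and 6077). On unique reads 2521 changed (1040 higher, 1481 lower), and among sequences with at least 50% unique reads, an alternative added after seeing the data, 2145 (921 and 1224). In none (0) of the alternatives compared sequence by sequence did a changed sequence pass 4-fold in the other direction. Changes of scaling, read minimum or floor alone could not have moved a sequence that far. On unique reads 955 of 958 higher and 1241 of 1242 lower sequences kept their direction.

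The share of 9 DPA reads held by the higher set was 19.8% with TMM on the pair, 22.8% at 20 reads, 19.8% at 100 reads, 17.6% for the set called on unique reads, and 20.94% to 21.43% over further thinnings. The share of 6 DPA reads held by the lower set was 21.4%, 21.1%, 17.8%, 16.3%, and 19.52% to 19.79% in the same order. Sequences higher in both tissues numbered 340 at 20 reads, 45 at 100 reads and 22 on unique reads, and those lower in both 691, 191 and 152, all added after seeing the data. At equal depth the log2 ratio of TC414662 was 9.87, against 12.77 at full depth, because its 6 DPA count then fell to the floor.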
